A study of Homo sapiens with 18 samples.

Results

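The gene set described here holds 47 genes of the extracellular matrix: secreted glycoproteins, proteoglycans, elastic fibre proteins, laminins, nidogens, collagens other than type IV, the lysyl oxidases that crosslink them, and sulfatases and ADAMTS proteases that modify them. They were taken by name from the gene table, which lists 33121 genes, and all 47 were found there. The choice was made with earlier results of these data known. After the filter on low counts, 42 of them were tested, among 13676 genes tested in all. The other 5 were COL3A1, THBS2, LUM, COL6A2 and FBLN1, none of which exceeded 14 reads in any library.

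The libraries come from RPE-1 cells, a human retinal pigment epithelial line made immortal with telomerase (hTERT), transfected with 1 of 3 siRNA labels. The 6 groups are siMondoA with doxorubicin (DXR), siMlx with DXR, siControl with DXR, siMondoA untreated, siMlx untreated and siControl untreated, with 3 libraries in each. Transfection with Lipofectamine RNAiMax lasted 2 days, and the treated cells then received DXR at 150 ng/ml for 3 days. The comparisons ask which genes differ after loss of MondoA or of Mlx, with and without DXR, and after DXR itself. The labels name no solvent for the untreated cells, no count of siRNA sequences per target and no separate cultures for the replicates, so p-values measure the spread between these libraries, which may be technical. In the library names the DXR groups carry the tag D5 and the untreated groups the tag D0. The labels do not explain the tags, so days in culture and DXR cannot be told apart.

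MondoA, encoded by MLXIP, and its partner Mlx form a transcription factor pair that binds E-box type elements and responds to sugar phosphates. DXR (doxorubicin) traps topoisomerase II on DNA and causes double-strand breaks. Cells secrete the matrix as fibronectin and collagen fibrils, elastic fibres and basement membrane sheets, then crosslink it with lysyl oxidases and trim it with proteases. Retinal pigment epithelium in the eye rests on such a sheet, Bruch's membrane, and TGF-beta signalling and the YAP and TEAD factors are known inducers of many matrix genes.

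Library totals lay between 15503423 and 29219280 reads. Levels between groups are given as CPM, read counts relative to library size scaled by TMM, except where RPKM is named. Levels between genes are given as the authors' RPKM, which also divides by gene length and carries no TMM scaling. MLXIP stood at 1.63, 2.58 and 2.86 CPM in siMondoA DXR libraries and 3.34, 4.57 and 3.63 CPM in siMondoA untreated libraries, against 63.2 to 72.9 CPM over the 6 siControl libraries. MLX stood at 5.70, 4.93 and 5.94 CPM in siMlx DXR libraries and 6.79, 7.12 and 7.10 CPM in siMlx untreated libraries, against 25.7 to 27.4 CPM over the 6 siControl libraries. MLX was higher with siMondoA than with siControl, at 42.6 to 45.4 CPM with DXR and 47.2 to 52.1 CPM untreated. The labelled target was low in each knockdown, and TXNIP, a known MondoA target gene, was lower in both knockdowns. The epithelial identity was partial: of 15 retinal pigment epithelium markers, 8 to 10 averaged under 1 CPM in each group, among them RPE65, RLBP1 and LRAT, while KRT8, KRT18, MITF and OTX2 each averaged above 10 CPM.

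Matrix messages took up a large part of every library, and more of it with DXR. The 47 members held 6.79% ± 0.32, 7.30% ± 0.50 and 7.07% ± 0.52 of all counts in the siMondoA, siMlx and siControl DXR groups, against 4.13% ± 0.25, 3.49% ± 0.54 and 4.34% ± 0.55 in the untreated groups of the same siRNAs (SD, n = 3 each). FN1, fibronectin, alone held 45.8% of the members' counts in siControl untreated libraries, and THBS1, thrombospondin-1, another 18.8%. By RPKM, FN1 averaged 3834, 4539 and 3982 in the siMondoA, siMlx and siControl DXR groups and 2262, 1911 and 2162 in their untreated groups, the highest of the 47 in each group. Among all listed genes FN1 ranked 2nd by count in each DXR group.

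In siControl untreated libraries the next levels were THBS1 at 1416 RPKM, SPARC at 695 RPKM and FBN1, fibrillin-1, at 308 RPKM. LOXL2 at 198 RPKM and VCAN at 194 RPKM followed and did not differ beyond their spread. Members above 100 RPKM numbered 13 in each DXR group, against 11, 10 and 11 in the siMondoA, siMlx and siControl untreated groups. Type I collagen, the bulk of most connective tissue, was modest, with COL1A1 at 38.6, 45.6 and 34.2 RPKM in the siMondoA, siMlx and siControl DXR groups and 23.7, 26.6 and 16.8 RPKM in their untreated groups. COL1A2, COL3A1, COL5A1, LUM and COL6A2 averaged under 1 RPKM in every group. By level the set was led by glycoproteins, fibrillin-1, lysyl oxidases and laminin chains rather than by fibrillar collagens. By RPKM without TMM scaling, the highest of the 6 group means was in siMlx DXR cells for 15 of the 42 tested members. The lowest was in siMlx untreated cells for 20, and neither count was made over all genes.

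**Figure D1:**
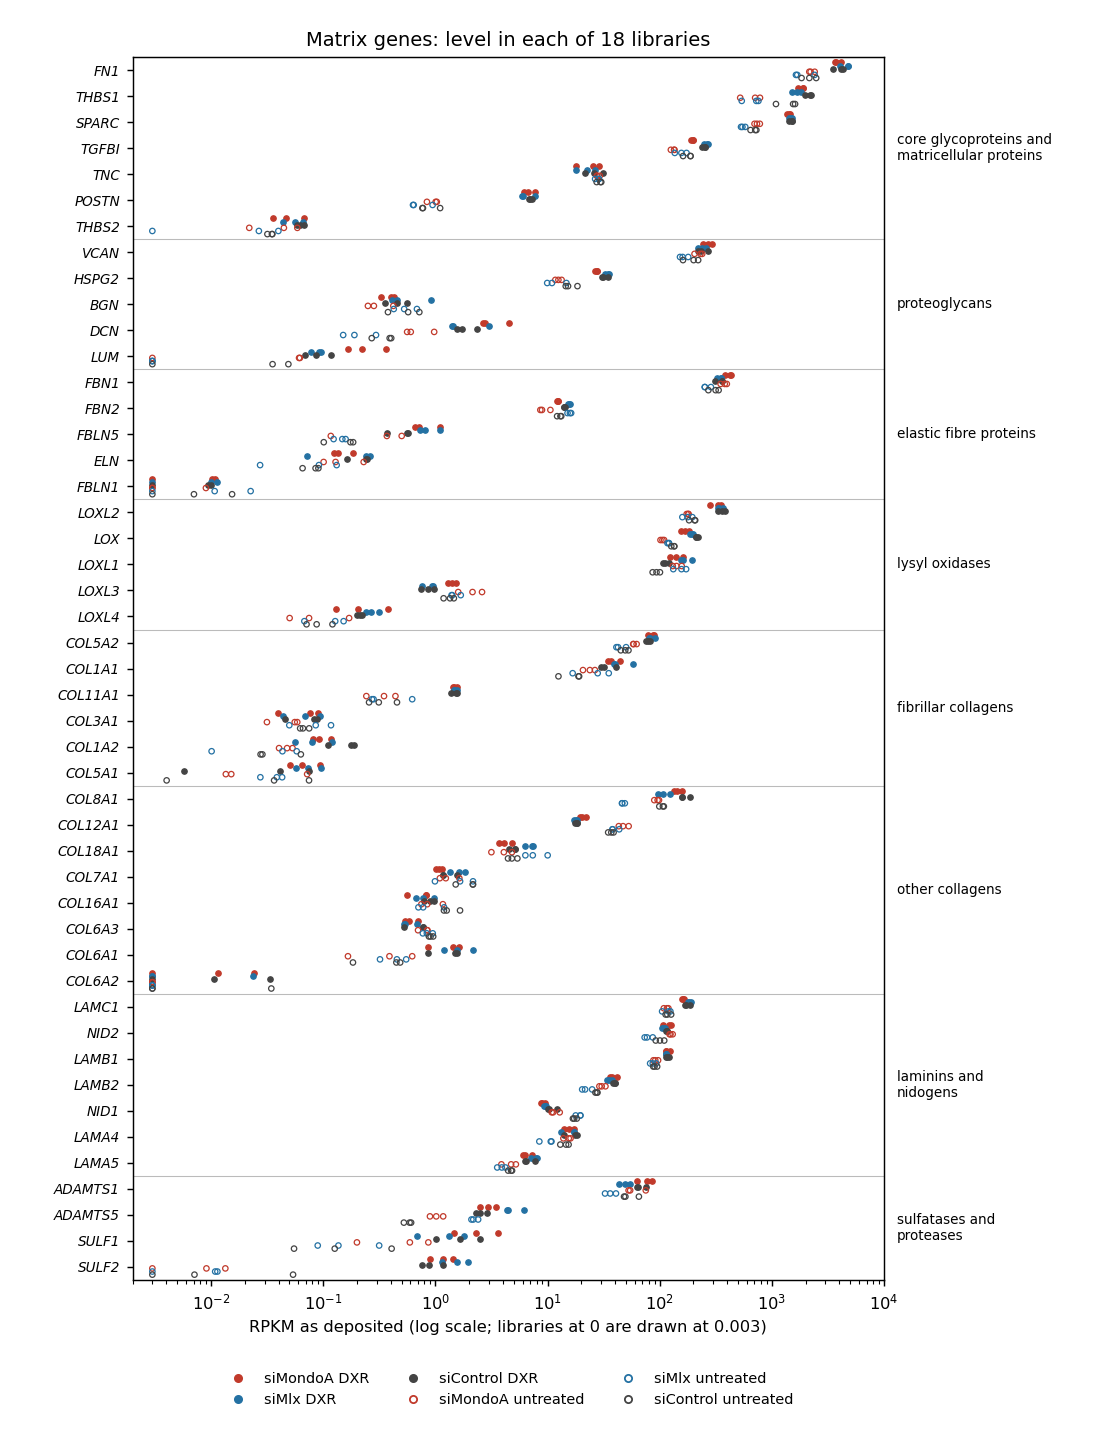
Level of each of the 47 members in each of the 18 libraries, in RPKM on a log axis, 1 point per library, with DXR libraries filled and untreated libraries open. FN1 is highest in each group, and COL1A2, COL3A1 and LUM stay under 1 RPKM.

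With DXR most members rose, whichever siRNA the cells carried. DXR was compared with untreated within each siRNA by edgeR's quasi-likelihood test, and a gene was called at a Benjamini-Hochberg adjusted p under 0.05 over all 13676 genes. In siMondoA cells 28 members rose, against 26.2% of all genes tested, and 3 fell, against 28.0%. In siMlx cells 31 rose, against 30.9% of all genes, and 4 fell, against 31.2%. In siControl cells 32 rose, against 28.1% of all genes, and 4 fell, against 28.6%. As shares of the 42 tested members the rises were 66.7%, 73.8% and 76.2% in siMondoA, siMlx and siControl cells. The members' median log2 fold change was 0.62, 0.90 and 0.65 in these 3 comparisons, while the median of all genes tested was -0.02, 0.00 and -0.01. The 3 comparisons share no library. Every call kept its sign under each alternative processing in which the gene was tested. In siMondoA, siMlx and siControl cells, 24 of 31, 31 of 35 and 30 of 36 calls passed under each of these alternatives. Members that a stricter filter left untested were not counted as lost. With the filter of 1 CPM in 3 libraries, 27, 29 and 30 members were called higher in the same order.

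In all 3 siRNA groups 27 members rose, 64.3% of those tested, against 17.1% of all genes. Because the members were chosen with earlier results of these data known, such shares are a description and not an independent test. The 27 members are listed next. These were FN1, POSTN, SPARC, THBS1, TGFBI, DCN, VCAN, HSPG2, FBN1, FBLN5, LOX, LOXL2, LOXL4, COL1A1, COL1A2, COL5A2, COL11A1, COL6A1, COL8A1, LAMA5, LAMB1, LAMB2, LAMC1, SULF1, SULF2, ADAMTS1 and ADAMTS5. LOXL3, COL12A1 and NID1 fell in all 3, or 7.14% of the members, against 17.1% of all genes. Bulk libraries cannot tell more cells making a matrix gene from more message per cell.

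**Figure D2:**
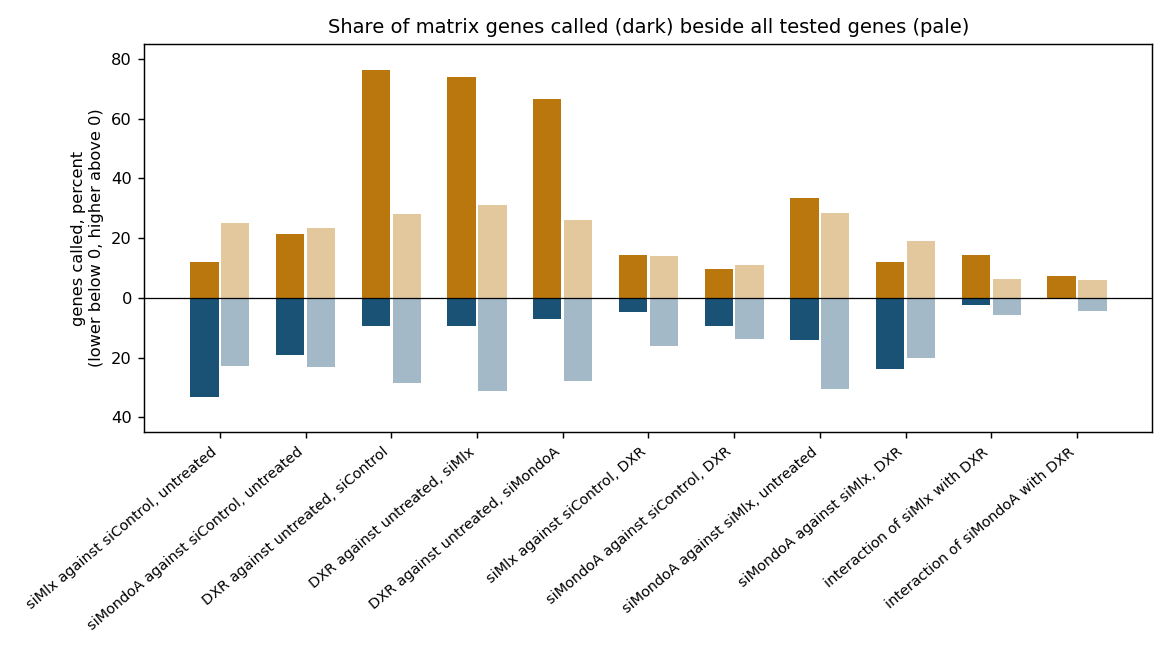
Share of the 42 tested members and of all 13676 tested genes called higher and lower in each comparison, in percent, at an edgeR adjusted p under 0.05. The members stand above all genes among the higher calls of the DXR comparisons, at 66.7% to 76.2%. In the siRNA comparisons they lie between 4.76% and 33.3% for either direction. The members were chosen with earlier results of these data known.

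**Figure D3:**
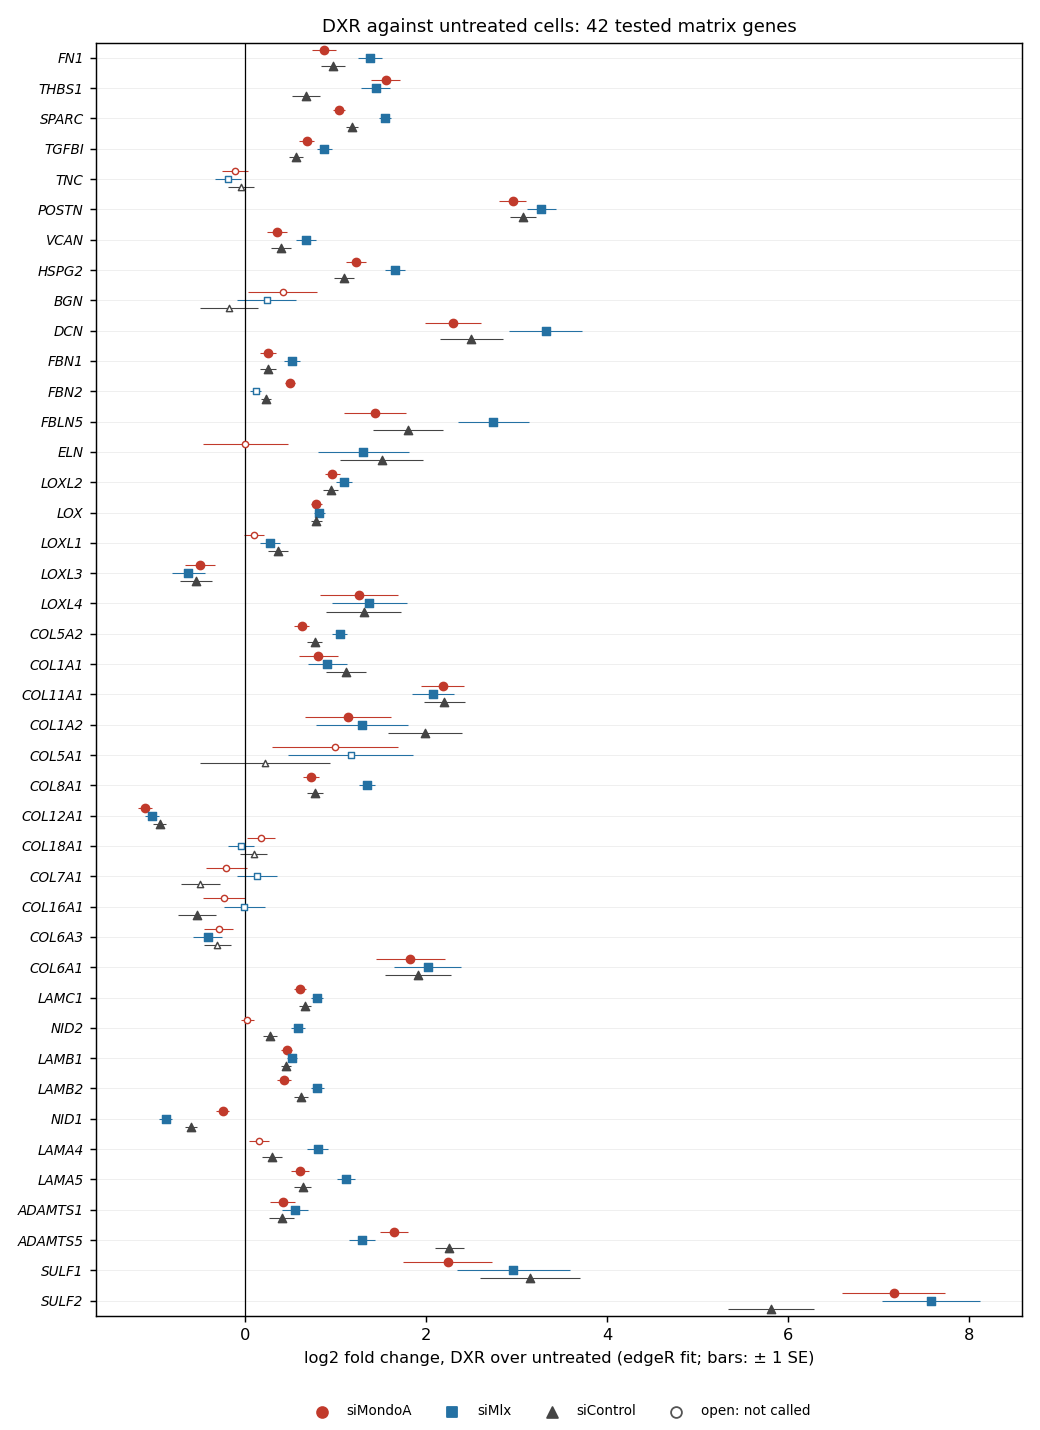
Log2 fold change of DXR over untreated for each tested member in siMondoA, siMlx and siControl cells, filled where called and open where not called, with bars of 1 SE. Most points lie right of 0, SULF2 farthest, and COL12A1, NID1 and LOXL3 lie left of it.

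Among the core glycoproteins and matricellular proteins, 5 of 6 rose with DXR in each siRNA group. Gene positions are those of GENCODE v29 on GRCh38. FN1 (chr2:215360440-215436172, minus strand), which ties integrins to collagen, had 34461, 34639 and 40033 CPM in siMondoA DXR libraries, 46492, 38601 and 46689 CPM in siMlx DXR libraries and 41139, 33339 and 39738 CPM in siControl DXR libraries. Untreated, it had 19669.5, 21253 and 18597 CPM with siMondoA, 21199, 14953 and 14360.1 CPM with siMlx and 22327, 19516 and 16308 CPM with siControl. The 9 DXR libraries all stood above the 9 untreated ones, at log2 fold changes of 0.87, 1.38 and 0.97 in siMondoA, siMlx and siControl cells (SE 0.13 each; adjusted p = 1.71e-05, 3.07e-08 and 4.07e-06 by edgeR).

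SPARC, a collagen-binding matricellular protein, had 5225, 4972 and 5401 CPM in siMondoA DXR libraries, 5837, 5293 and 5542 CPM in siMlx DXR libraries and 5688, 5178 and 5692 CPM in siControl DXR libraries. Its untreated values were 2707, 2538 and 2358 CPM with siMondoA, 1993, 1893 and 1816 CPM with siMlx and 2554, 2511 and 2234 CPM with siControl. DXR and untreated libraries did not overlap, and the log2 fold changes were 1.04, 1.55 and 1.18 in siMondoA, siMlx and siControl cells (adjusted p = 3.06e-10, 9.86e-13 and 5.61e-11 by edgeR).

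THBS1 (chr15:39581079-39599466, plus strand), a trimeric glycoprotein that can activate latent TGF-beta, had 11342, 10032 and 11374 CPM in siMondoA DXR libraries, 11278, 9108 and 10240.1 CPM in siMlx DXR libraries and 13237, 11606 and 13509 CPM in siControl DXR libraries. Untreated, THBS1 had 3966, 4354 and 2835 CPM with siMondoA, 4210.5, 4059 and 2972 CPM with siMlx and 8755, 9174 and 6072 CPM with siControl. In both conditions every siControl library stood above every library of both knockdowns, by less with DXR than untreated. The log2 fold changes were 1.55, 1.45 and 0.68 in siMondoA, siMlx and siControl cells (SE 0.16 each; adjusted p = 1.35e-07, 1.68e-07 and 0.00106 by edgeR).

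TGFBI, a secreted integrin ligand named for its induction by TGF-beta, had 548, 568 and 585 CPM in siMondoA DXR libraries, 802, 724 and 779 CPM in siMlx DXR libraries and 745, 688 and 746 CPM in siControl DXR libraries. Untreated, TGFBI had 364, 365 and 331 CPM with siMondoA, 466, 423 and 364 CPM with siMlx and 517, 519 and 437 CPM with siControl. It rose by 0.68, 0.88 and 0.57 on the log2 scale in siMondoA, siMlx and siControl cells (adjusted p = 7.77e-07, 1.32e-08 and 5.83e-06 by edgeR), and the siMondoA group had the lowest mean in both conditions. TNC, tenascin-C, did not pass the test in any of the 11 comparisons, and its log2 fold changes with DXR were -0.11, -0.18 and -0.05 in siMondoA, siMlx and siControl cells (SE 0.14 each).

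POSTN (chr13:37562583-37598844, minus strand), periostin, an integrin-binding matricellular protein of remodelling tissue, had among the largest rises of the 42 at a far lower level. It had 21.6, 26.5 and 23.5 CPM in siMondoA DXR libraries, 21.9, 26.8 and 21.3 CPM in siMlx DXR libraries and 24.8, 25.3 and 24.1 CPM in siControl DXR libraries. Untreated, POSTN had 3.28, 2.73 and 3.26 CPM with siMondoA, 2.08, 3.08 and 2.03 CPM with siMlx and 3.64, 2.55 and 2.52 CPM with siControl. The DXR and untreated libraries were far apart, at log2 fold changes of 2.96, 3.28 and 3.07 in siMondoA, siMlx and siControl cells (adjusted p = 1.26e-11, 2.77e-12 and 6.26e-12 by edgeR). The RefSeq promoter table (GRCh38.p14), which spans 250 bases before to 50 after a gene's start, held 34 of the 47 members. POSTN was the only 1 of these 34 with the AP-1 letters TGANTCA on either strand. These letters stood in 7.76% of all 27305 promoters and in 4.57% of the 9830 promoters of tested genes. POSTN also held the TATA box letters TATAAA. Its AP-1 match (chr13:37598970-37598999, minus strand) and its TATA match nearest the start (chr13:37598780-37598809, minus strand) are shown with the matched letters in capitals.
POSTN AP-1: taaacatgcagTGAGTCAattgttcatatg
POSTN TATA: ctctgacatgtaTATAAAttctgagctctc
These matches describe the sequence and do not show binding.

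Of the 4 proteoglycans tested, 3 rose with DXR in each siRNA group. DCN (chr12:91140484-91183123, minus strand), decorin, a small proteoglycan that coats collagen fibrils, had 13.1, 7.55 and 8.10 CPM in siMondoA DXR libraries, 8.90, 4.13 and 4.16 CPM in siMlx DXR libraries and 6.83, 4.91 and 4.51 CPM in siControl DXR libraries. Untreated, DCN had 1.50, 2.60 and 1.57 CPM with siMondoA, 0.505, 0.404 and 0.783 CPM with siMlx and 0.736, 1.07 and 1.08 CPM with siControl. Each DXR group stood above its own untreated group without overlap, at log2 fold changes of 2.30, 3.32 and 2.50 in siMondoA, siMlx and siControl cells (adjusted p = 4.11e-06, 6.00e-07 and 4.39e-06 by edgeR). HSPG2, perlecan of basement membranes, rose by 1.23, 1.66 and 1.09 on the log2 scale in the same order, and VCAN, versican, which binds hyaluronan, by 0.36, 0.68 and 0.40. The VCAN call in siMondoA cells ended without siMondoA DXR replicate 1 or siMondoA untreated replicate 3 (adjusted p = 0.0507 and 0.0538 by edgeR). BGN, biglycan, did not pass the test, at log2 fold changes of 0.42, 0.24 and -0.18 in the same order. LUM, lumican, another small proteoglycan, was too low to test. Its 3 libraries summed to 11 reads in siMlx DXR cells against none in siMlx untreated cells, a ratio whose lower 95% counting limit was 2.55.

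The elastic fibre proteins split by gene. FBN1 rose by 0.26, 0.52 and 0.26 on the log2 scale in siMondoA, siMlx and siControl cells (adjusted p = 0.0200, 4.60e-05 and 0.0182 by edgeR), and its siControl libraries overlapped. The siMondoA call ended without siMondoA DXR replicate 1 or 3 or siMondoA untreated replicate 3 (adjusted p between 0.0625 and 0.103 by edgeR), and the siControl call without siControl DXR replicate 1 or 3 or siControl untreated replicate 3 (adjusted p between 0.0696 and 0.124). FBN2, fibrillin-2, rose in siMondoA and siControl cells by 0.50 and 0.23, and was not called in siMlx cells, at 0.12, though RLE scaling, upper-quartile scaling and DESeq2 each called it (adjusted p = 0.0463, 0.0428 and 0.0470). FBLN5, fibulin-5, which guides elastin onto fibrils, rose by 1.44, 2.74 and 1.80 at under 4 CPM. ELN, elastin, stayed near 1 CPM or under it and was called higher in siMlx and siControl cells, at 1.31 and 1.51, but not in siMondoA cells, at 0.01. The siMlx call on ELN ended without siMlx DXR replicate 1 or 3 or siMlx untreated replicate 2 or 3 (adjusted p between 0.0553 and 0.142 by edgeR).

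Among the 5 lysyl oxidases, which oxidise lysines so that collagen and elastin can crosslink, LOX and LOXL2 were abundant and rose. LOX had 939, 857 and 1029 CPM in siMondoA DXR libraries, 1138, 1048 and 1099.6 CPM in siMlx DXR libraries and 1201, 1163 and 1242 CPM in siControl DXR libraries. Untreated, LOX had 570.5, 527 and 536 CPM with siMondoA, 607, 630.2 and 622 CPM with siMlx and 713, 674 and 699 CPM with siControl. Its log2 fold changes were near equal, at 0.79, 0.82 and 0.79 in siMondoA, siMlx and siControl cells (SE 0.06 each; adjusted p = 2.39e-09, 6.00e-10 and 2.10e-09 by edgeR), and DXR and untreated libraries did not overlap. LOXL2 rose by 0.97, 1.09 and 0.95 in the same order, and LOXL4, at under 3 CPM, by 1.26, 1.38 and 1.31. LOXL1 rose in siMlx and siControl cells, by 0.28 and 0.37, and was not called in siMondoA cells, at 0.11. The LOXL4 call in siMondoA cells ended without siMondoA DXR replicate 1 or siMondoA untreated replicate 1 or 3 (adjusted p between 0.0667 and 0.173 by edgeR), and that in siControl cells without siControl untreated replicate 1 (0.0545). The LOXL1 call in siMlx cells ended without siMlx DXR replicate 1 or siMlx untreated replicate 1 or 3 (adjusted p between 0.0586 and 0.193 by edgeR). LOXL3 went the other way at a low level, with 5.95, 5.37 and 5.18 CPM in siMondoA DXR libraries, 3.78, 2.99 and 3.83 CPM in siMlx DXR libraries and 3.87, 3.33 and 2.97 CPM in siControl DXR libraries. Untreated, LOXL3 had 7.85, 9.48 and 5.68 CPM with siMondoA, 6.12, 5.10 and 5.11 CPM with siMlx and 5.42, 5.04 and 4.33 CPM with siControl. It fell by 0.49, 0.62 and 0.54 on the log2 scale in siMondoA, siMlx and siControl cells (adjusted p = 0.0161, 0.00530 and 0.0134 by edgeR), with overlapping libraries in siMondoA cells. The siMondoA call ended without siMondoA untreated replicate 2 or siMondoA DXR replicate 3, and the siControl call without siControl untreated replicate 1 or siControl DXR replicate 3 (adjusted p between 0.0517 and 0.151 by edgeR).

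Of the 5 fibrillar collagens tested, 4 rose in each siRNA group, and COL5A1, at under 1 CPM, was not called. COL1A1 had 269, 223 and 215 CPM in siMondoA DXR libraries, 364, 241 and 249.7 CPM in siMlx DXR libraries and 252, 183 and 198 CPM in siControl DXR libraries. Untreated, COL1A1 had 137, 150.5 and 115 CPM with siMondoA, 199.7, 160.2 and 94.6 CPM with siMlx and 109, 112 and 71.5 CPM with siControl. Each DXR group stood above its own untreated group, at log2 fold changes of 0.81, 0.91 and 1.11 in siMondoA, siMlx and siControl cells (SE 0.22 each; adjusted p = 0.00376, 0.00115 and 0.000229 by edgeR). COL11A1, a minor fibrillar chain, rose by 2.19, 2.08 and 2.20 in the same order, and COL5A2 by 0.63, 1.05 and 0.77. COL1A2 rose at about 1 CPM or less, and its calls in siMondoA and siMlx cells ended under DESeq2 (adjusted p = 0.121 and 0.0783) and, in siMondoA cells, without any 1 of the 6 libraries compared (adjusted p between 0.0551 and 0.147 by edgeR). In siMlx cells COL1A2 was not called without siMlx DXR replicate 1 or 2 or siMlx untreated replicate 1 or 3 (adjusted p between 0.0516 and 0.156 by edgeR).

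The other collagens were mixed: of 7 tested, 2 rose in each siRNA group, COL8A1 and COL6A1, while COL12A1 fell in each. COL12A1 (chr6:75084326-75206051, minus strand), a collagen that decorates fibrils, had 237, 242 and 268 CPM in siMondoA DXR libraries, 217, 218 and 226 CPM in siMlx DXR libraries and 225, 209 and 225 CPM in siControl DXR libraries. Untreated, COL12A1 had 489, 595 and 518 CPM with siMondoA, 489, 429.6 and 424 CPM with siMlx and 445, 427 and 392 CPM with siControl. The 9 DXR libraries all stood under the 9 untreated ones, and COL12A1 fell by 1.10, 1.02 and 0.94 on the log2 scale in siMondoA, siMlx and siControl cells (SE 0.07 each; adjusted p = 5.99e-10, 6.09e-10 and 3.87e-09 by edgeR). COL8A1, a network-forming collagen of specialised basement membranes, rose by 0.73, 1.35 and 0.77 in the same order, and COL6A1 by 1.83, 2.02 and 1.91 at under 10 CPM.

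COL16A1, another fibril-associated collagen, fell in siControl cells, with 4.59, 5.12 and 5.71 CPM in siControl DXR libraries against 6.89, 9.12 and 6.42 CPM in siControl untreated libraries (log2 fold change -0.53, SE 0.21, adjusted p = 0.0379 by edgeR). That call ended without siControl untreated replicate 2, siControl DXR replicate 1 or siControl DXR replicate 2 (adjusted p = 0.166, 0.119 and 0.0717 by edgeR). COL6A3 fell in siMlx cells, by 0.41, a call that ended without siMlx DXR replicate 2 or 3 or siMlx untreated replicate 1 (adjusted p between 0.100 and 0.109 by edgeR). COL7A1 of anchoring fibrils and COL18A1 passed the test with DXR in none of the 3.

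Of the 7 laminin and nidogen genes, 4, 6 and 6 rose with DXR in siMondoA, siMlx and siControl cells and 1, NID1, fell in each. LAMB1, LAMB2, LAMC1 and LAMA5, subunits of the laminin trimers that found basement membranes, rose in all 3 siRNA groups, by 0.43 to 0.61 in siMondoA cells, 0.52 to 1.12 in siMlx cells and 0.45 to 0.67 in siControl cells on the log2 scale. LAMA4 rose in siMlx and siControl cells, by 0.80 and 0.30, and was at 0.16, not called, in siMondoA cells. The siControl call on LAMA4 ended without siControl DXR replicate 1 or 2 or siControl untreated replicate 2 or 3 (adjusted p between 0.0541 and 0.135 by edgeR). NID1 (chr1:235975830-236065162, minus strand), nidogen-1, which bridges laminin and type IV collagen, had 58.1, 52.0 and 55.3 CPM in siMondoA DXR libraries, 60.9, 57.4 and 57.3 CPM in siMlx DXR libraries and 74.9, 61.6 and 62.5 CPM in siControl DXR libraries. Untreated, NID1 had 61.9, 63.3 and 70.8 CPM with siMondoA, 111, 101 and 109.8 CPM with siMlx and 99.4, 97.5 and 103 CPM with siControl. Each DXR group stood under its own untreated group without overlap, and NID1 fell by 0.25, 0.87 and 0.59 on the log2 scale in siMondoA, siMlx and siControl cells (SE 0.07 each; adjusted p = 0.00816, 3.30e-09 and 7.71e-07 by edgeR). The siMondoA call ended without siMondoA untreated replicate 3 (adjusted p = 0.0535 by edgeR). Its paralog NID2 rose in siMlx and siControl cells, by 0.59 and 0.28, and was not called in siMondoA cells, at 0.03.

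All 4 matrix-modifying genes rose with DXR in each siRNA group. SULF2 (chr20:47656348-47786616, minus strand), which removes sulfate groups from heparan sulfate at the cell surface, had 4.49, 5.67 and 7.21 CPM in siMondoA DXR libraries, 5.93, 7.76 and 9.99 CPM in siMlx DXR libraries and 3.82, 4.35 and 5.95 CPM in siControl DXR libraries. Over the 3 untreated libraries it summed to 2 reads with siMondoA, 2 with siMlx and 6 with siControl, so it was close to not detectable without DXR. The ratio of scaled counts, DXR over untreated, was 169 in siMondoA cells (counting interval 46.4 to 1402 at 95%) and 225 in siMlx cells (62.0 to 1867), intervals that cover counting error only. The edgeR log2 fold changes, 7.16, 7.58 and 5.81 in siMondoA, siMlx and siControl cells, depend on the prior count at so few reads (adjusted p = 4.19e-09, 4.62e-10 and 5.75e-09 by edgeR).

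SULF1, its paralog, had 23.1, 14.2 and 9.47 CPM in siMondoA DXR libraries, 11.7, 8.41 and 4.48 CPM in siMlx DXR libraries and 16.1, 10.4 and 6.47 CPM in siControl DXR libraries. Untreated, SULF1 had 5.12, 3.48 and 1.15 CPM with siMondoA, 1.85, 0.808 and 0.522 CPM with siMlx and 2.44, 0.764 and 0.325 CPM with siControl. In each of the 6 groups the library numbered 1 was highest and the library numbered 3 lowest, and each DXR group stood above its untreated group (log2 fold changes 2.24, 2.96 and 3.15 in siMondoA, siMlx and siControl cells; adjusted p = 0.000748, 0.000382 and 7.40e-05 by edgeR). ADAMTS5 (chr21:26917912-26966513, minus strand), which cleaves aggrecan and versican, had 29.1, 24.6 and 35.0 CPM in siMondoA DXR libraries, 45.4, 43.1 and 63.2 CPM in siMlx DXR libraries and 25.1, 22.6 and 29.5 CPM in siControl DXR libraries. Untreated, ADAMTS5 had 8.35, 9.44 and 10.6 CPM with siMondoA, 22.3, 20.3 and 19.3 CPM with siMlx and 4.95, 5.60 and 5.66 CPM with siControl. It rose by 1.64, 1.29 and 2.26 on the log2 scale in siMondoA, siMlx and siControl cells (adjusted p = 4.57e-08, 1.42e-07 and 1.09e-09 by edgeR), and its siControl untreated libraries were the lowest of the 18. ADAMTS1, a protease of versican and aggrecan, rose by 0.42, 0.55 and 0.41 in the same order. Its siMondoA call ended without siMondoA DXR replicate 3 or siMondoA untreated replicate 1 or 2, and its siControl call without siControl DXR replicate 3 or siControl untreated replicate 1 or 2 (adjusted p between 0.0691 and 0.0923 by edgeR).

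**Figure D4:**
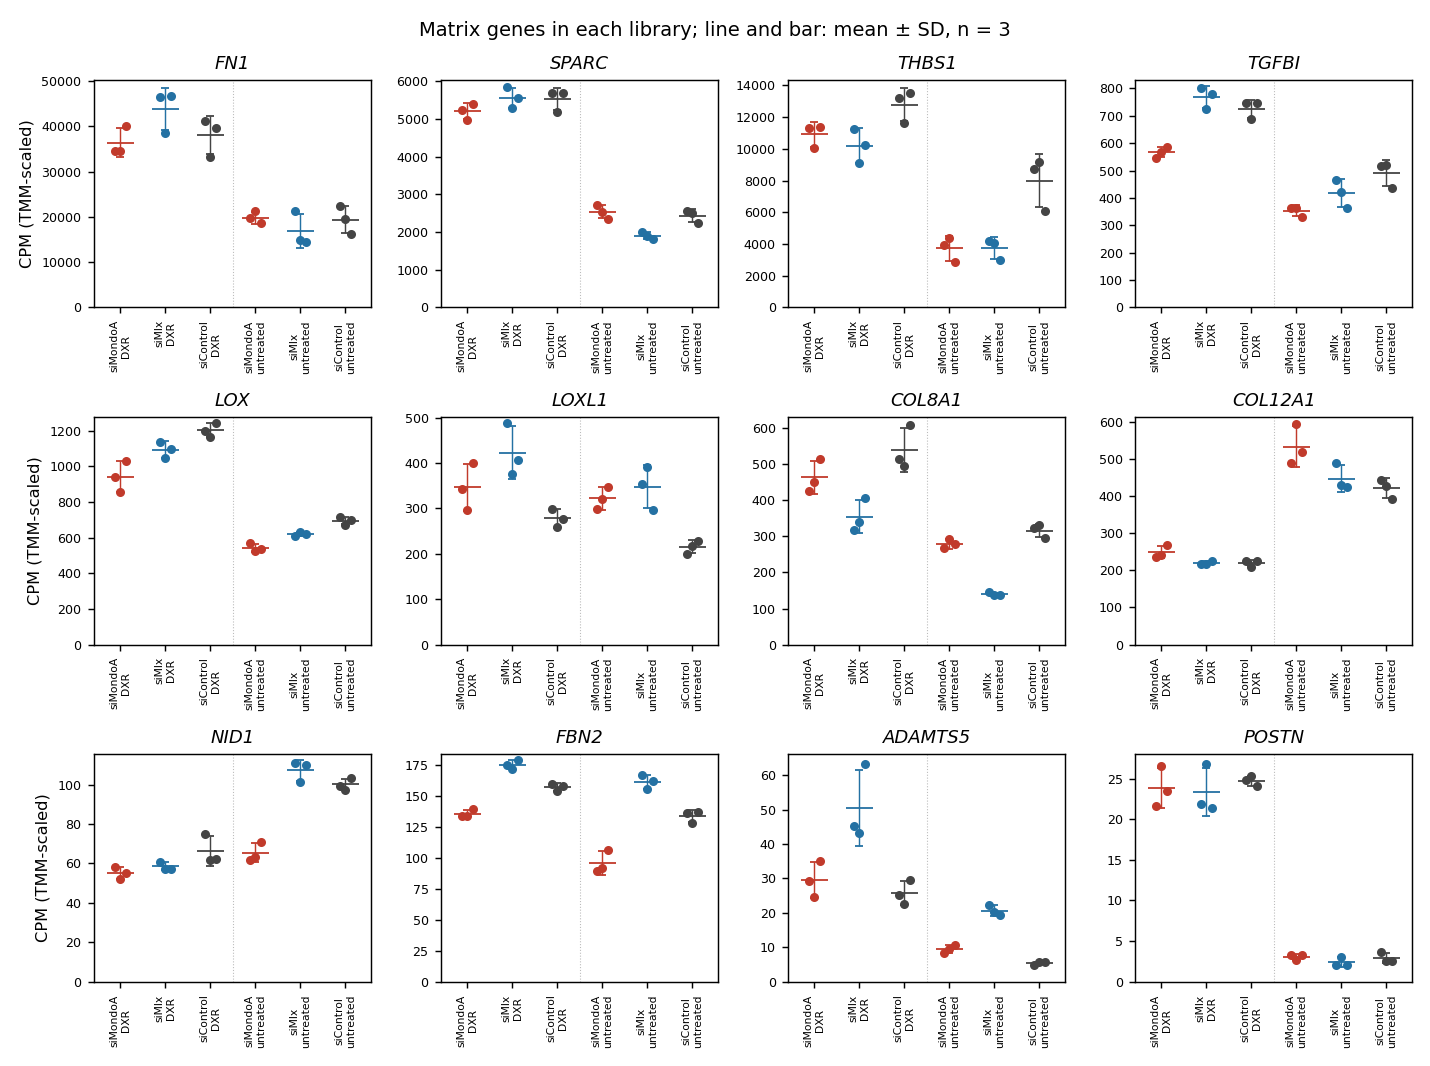
Level of 12 members in each of the 18 libraries, in TMM-scaled CPM on linear axes from 0, 1 point per library, with the mean and SD of each group of 3. THBS1 is low in both untreated knockdowns, COL8A1 in siMlx untreated cells, ADAMTS5 is highest with siMlx in both conditions, and COL12A1 is lower with DXR in each siRNA group.

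Without DXR, knockdown moved fewer members and in both directions. Both knockdowns were compared with the same 3 siControl libraries, so their values are given side by side and not as independent results. With siMondoA 9 members rose, against 23.3% of all genes tested, and 8 fell, against 23.3%, and the members' median log2 fold change was 0.04, against 0.02 for all genes tested. With siMlx 5 rose, against 24.9% of all genes, and 14 fell, against 23.0%, and the median was -0.17, against 0.02 for all genes. As shares of the 42 tested, the falls were 19.0% with siMondoA and 33.3% with siMlx, and the rises 21.4% and 11.9%.

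THBS1 had the largest fall with siMondoA and the second largest with siMlx. No untreated knockdown library passed 4354 CPM, and the lowest siControl library stood at 6072 CPM. The log2 fold change was -1.11 with siMondoA and -1.09 with siMlx (SE 0.16 each; adjusted p = 9.21e-06 and 1.01e-05 by edgeR). TGFBI fell by 0.47 with siMondoA and 0.23 with siMlx (adjusted p = 6.38e-05 and 0.0214 by edgeR), and LOX by 0.35 and 0.17 (adjusted p = 6.39e-05 and 0.0266 by edgeR). The TGFBI call with siMlx ended without siControl untreated replicate 1 or 2 or siMlx untreated replicate 3 (adjusted p between 0.0899 and 0.142 by edgeR) and under upper-quartile scaling (0.0546). The LOX call with siMlx ended without siControl untreated replicate 1 or 3 or siMlx untreated replicate 1 or 3 (adjusted p between 0.0519 and 0.0893 by edgeR) and under upper-quartile scaling (0.0684).

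FN1 was not called in either knockdown, at log2 fold changes of 0.03 with siMondoA and -0.20 with siMlx (SE 0.13 each; adjusted p = 0.859 and 0.218 by edgeR). Without siMlx untreated replicate 1, the highest FN1 library of that group, the siMlx value was -0.40 and called (adjusted p = 0.0101 by edgeR), and it was also called without the low-count filter (adjusted p = 0.000316). SPARC fell with siMlx by 0.36 (adjusted p = 0.000176 by edgeR) and was not called with siMondoA, at 0.06. COL1A1 was called higher with siMlx, at 0.64 (adjusted p = 0.0212 by edgeR), with overlapping libraries, and the call ended without siControl untreated replicate 3, siMlx untreated replicate 1 or siMlx untreated replicate 2 (adjusted p = 0.112, 0.171 and 0.0645). With siMondoA COL1A1 was not called, at 0.46, but passed in a fit of the groups compared alone (adjusted p = 0.0312 by edgeR) and without the low-count filter (adjusted p = 9.52e-10).

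COL8A1 (chr3:99638475-99799226, plus strand) had the largest fall with siMlx, with 145, 137 and 136 CPM in siMlx untreated libraries against 323, 331 and 296 CPM in siControl untreated libraries (log2 fold change -1.18, SE 0.09, adjusted p = 1.94e-09 by edgeR). With siMondoA it had 267, 292 and 278 CPM and was not called (log2 fold change -0.18). COL16A1 had 4.56, 6.25 and 3.93 CPM in siMondoA untreated libraries and 6.40, 4.19 and 3.76 CPM in siMlx untreated libraries, against 6.89, 9.12 and 6.42 CPM in siControl untreated libraries. It fell by 0.57 with siMondoA and 0.64 with siMlx, calls that ended without siControl untreated replicate 2 (adjusted p = 0.143 and 0.0908 by edgeR), without siMondoA untreated replicate 1 or 3 (0.0968 and 0.124) and without siMlx untreated replicate 2 or 3 (0.0784 and 0.0914). NID1 was not called with siMlx, at 0.10, and fell with siMondoA to 61.9, 63.3 and 70.8 CPM in siMondoA untreated libraries, against 99.4, 97.5 and 103 CPM in siControl untreated libraries (log2 fold change -0.62, adjusted p = 6.83e-07 by edgeR).

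ADAMTS5 had the largest rise with siMlx, and with siMondoA the largest among members averaging at least 5 CPM. Each siMondoA and siMlx untreated library stood over the 5.66 CPM of the highest siControl untreated library, and the siMlx libraries were highest. The log2 fold change was 0.81 with siMondoA and 1.94 with siMlx (SE 0.18 and 0.16; adjusted p = 0.000841 and 8.77e-09 by edgeR). LOXL1, a crosslinking enzyme of elastic fibres, had 298, 319.8 and 348 CPM in siMondoA untreated libraries and 354, 392 and 297 CPM in siMlx untreated libraries, against 199.7, 218 and 229 CPM in siControl untreated libraries. It rose by 0.58 with siMondoA and 0.69 with siMlx (adjusted p = 0.000270 and 4.13e-05 by edgeR). LOXL3 rose with siMondoA by 0.65 (adjusted p = 0.00246 by edgeR), to values all above the siControl untreated ones, and with siMlx was at 0.14, not called. DCN rose with siMondoA by 1.03 and FBLN5 by 1.06 (adjusted p = 0.0384 and 0.0468 by edgeR), both at under 3 CPM, and both calls ended without any 1 of several libraries (adjusted p between 0.0545 and 0.242). COL18A1, a basement membrane collagen and source of endostatin, rose with siMlx, with 58.2, 43.2 and 36.6 CPM in siMlx untreated libraries against 31.9, 26.5 and 28.1 CPM in siControl untreated libraries (log2 fold change 0.67, adjusted p = 0.000849 by edgeR).

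FBN2 took opposite directions, with 89.3, 91.9 and 107 CPM in siMondoA untreated libraries and 167, 156 and 162 CPM in siMlx untreated libraries, against 137, 128 and 137 CPM in siControl untreated libraries. It fell by 0.48 with siMondoA (adjusted p = 1.07e-06 by edgeR) and rose by 0.27 with siMlx (adjusted p = 0.000641 by edgeR). FBN1 and NID2 were also called in opposite directions, both higher with siMondoA and lower with siMlx. Both FBN1 calls ended without any 1 of several libraries (adjusted p between 0.0688 and 0.148 by edgeR). FBN2 was also the only 1 of the 34 members in the promoter table with the E-box letters CACGTG, the core of the element that MondoA and Mlx are known to bind, against 7.43% of all 27305 promoters and 10.0% of the 9830 promoters of tested genes. The match (chr5:128538325-128538354, minus strand) begins 97 bases before the start and is shown in capitals.
FBN2 E-box: cgggttgagcccCACGTGtggacggccgcg
None of the other 33 member promoters held these letters in that window. The match describes the sequence and does not show binding, and its part in the FBN2 values was not tested.

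The laminin and nidogen genes were called differently with siMlx and with siMondoA. With siMlx, 4 of the 7 fell, against 23.0% of all genes tested, and none rose, against 24.9%. The falls were 0.55 for LAMA4, 0.38 for NID2, 0.32 for LAMB2 and 0.29 for LAMA5 on the log2 scale. The LAMA5 call ended without siControl untreated replicate 1 or 3 or siMlx untreated replicate 2 or 3 (adjusted p between 0.0503 and 0.110 by edgeR). With siMondoA, 1 of the 7 rose, NID2 by 0.29, and 1 fell, NID1 by 0.62, against 23.3% of all genes tested in each direction. LAMA4, LAMB2 and LAMA5 were not called with siMondoA, at 0.04, 0.14 and -0.05. LAMB1 and LAMC1 were called with neither siRNA. HSPG2 fell with both, by 0.39 with siMondoA and 0.46 with siMlx (adjusted p = 0.00692 and 0.00197 by edgeR), and the siMondoA call ended without siControl untreated replicate 1 (adjusted p = 0.0597).

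**Figure D5:**
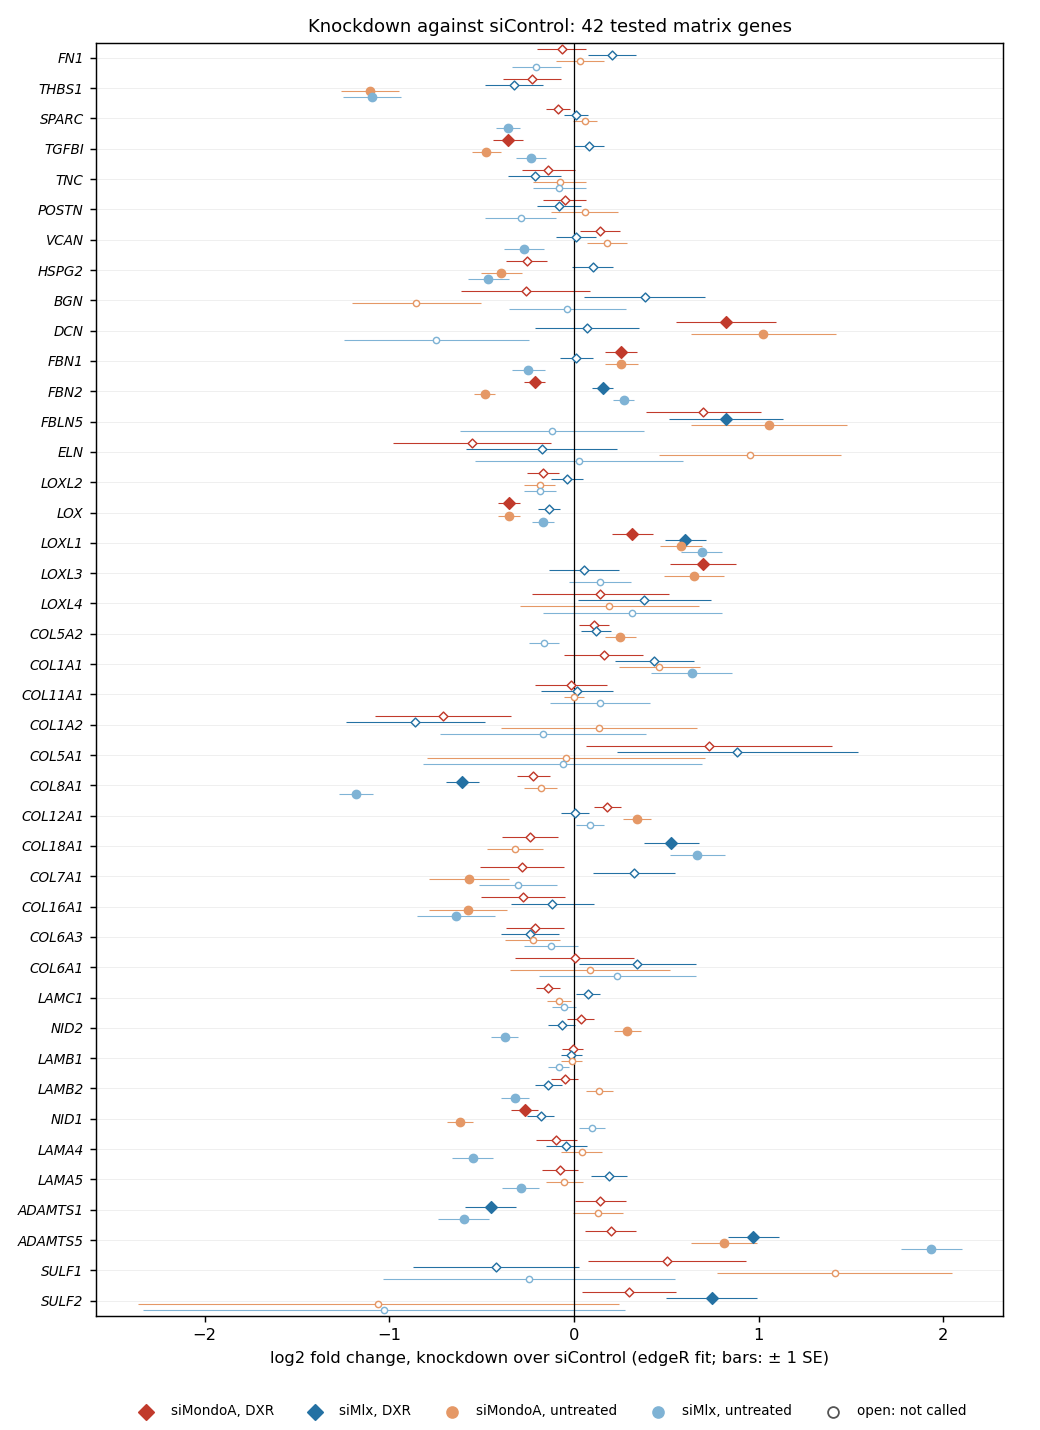
Log2 fold change of siMondoA and of siMlx over siControl for each tested member, untreated and with DXR, filled where called and open where not called. ADAMTS5 with siMlx lies farthest right, and THBS1 and, with siMlx, COL8A1 lie farthest left among the untreated calls.

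With DXR the knockdowns differed from siControl in fewer members, and also in fewer of all genes. Under DXR 19.0% of members were called with siMondoA and 19.0% with siMlx, against 24.8% and 30.2% of all genes tested. Untreated, the shares were 40.5% and 45.2%, against 46.6% and 47.9% of all genes. With siMondoA under DXR 4 members (9.52%) were higher, against 10.9% of all genes, and 4 (9.52%) lower, against 13.9%. With siMlx 6 (14.3%) were higher, against 14.0% of all genes, and 2 (4.76%) lower, against 16.2%. The median log2 fold change of the members was -0.06 with siMondoA and 0.01 with siMlx. FN1, SPARC, THBS1 and COL1A1 were called in neither: THBS1 was at -0.23 with siMondoA and -0.32 with siMlx (adjusted p = 0.315 and 0.125 by edgeR), and no knockdown library reached the lowest siControl one. FN1 was at -0.07 and 0.21, SPARC at -0.09 and 0.01, and COL1A1 at 0.16 and 0.43, with siMondoA first in each pair. In a fit of the groups compared alone THBS1 with siMlx was called (adjusted p = 0.0130 by edgeR), and without the low-count filter FN1 and COL1A1 with siMlx and THBS1 with both siRNAs were called (adjusted p at most 0.00106).

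TGFBI and LOX were lower with siMondoA under DXR, as they were without it. The DXR values given above put every siMondoA library under every siControl library for both genes, at log2 fold changes of -0.36 for TGFBI and -0.35 for LOX (adjusted p = 0.00228 and 0.000183 by edgeR). With siMlx neither was called, at 0.08 and -0.13. NID1 was lower with siMondoA, at -0.27 (adjusted p = 0.0105 by edgeR), a call that ended without siControl DXR replicate 1 or siMondoA DXR replicate 2 (adjusted p = 0.0867 and 0.0549). FBN2 was lower with siMondoA, with 134, 134 and 139 CPM in siMondoA DXR libraries against 159.8, 154 and 158 CPM in siControl DXR libraries (log2 fold change -0.21, adjusted p = 0.00946 by edgeR), and DCN, LOXL3, FBN1 and LOXL1 were higher.

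LOXL3 was higher with siMondoA by 0.70 (adjusted p = 0.00695 by edgeR). DCN was higher by 0.82 (adjusted p = 0.0321 by edgeR), and the call ended without siControl DXR replicate 2 or 3 or siMondoA DXR replicate 1 (adjusted p = 0.104, 0.123 and 0.203). FBN1 had 5164, 4584 and 5279 CPM in siMondoA DXR libraries against 4444, 3759 and 4391 CPM in siControl DXR libraries (log2 fold change 0.25, adjusted p = 0.0423 by edgeR), and that call ended without siControl DXR replicate 2 or 3 or siMondoA DXR replicate 1 or 3 (adjusted p between 0.0542 and 0.206).

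With siMlx under DXR, ADAMTS5 was again highest among the siRNA groups of the same condition, at a log2 fold change of 0.97 over siControl (adjusted p = 1.87e-05 by edgeR). LOXL1 had 487, 376 and 406 CPM in siMlx DXR libraries against 299, 258 and 277 CPM in siControl DXR libraries (log2 fold change 0.60, adjusted p = 0.000360 by edgeR). COL18A1 had 47.9, 39.7 and 46.3 CPM in siMlx DXR libraries against 32.6, 27.8 and 32.4 CPM in siControl DXR libraries (log2 fold change 0.53, adjusted p = 0.0104 by edgeR), and the call ended without siControl DXR replicate 2 (adjusted p = 0.0566). None of these 3 genes overlapped between the groups. FBN2, FBLN5 and SULF2 were also called higher, by 0.16, 0.83 and 0.75, and each of these calls ended without any 1 of several libraries (adjusted p between 0.0566 and 0.204 by edgeR).

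COL8A1 had 319, 340.2 and 405 CPM in siMlx DXR libraries against 516, 496 and 608 CPM in siControl DXR libraries (log2 fold change -0.61, adjusted p = 2.78e-05 by edgeR). ADAMTS1 had 213, 237 and 266 CPM in siMlx DXR libraries against 307, 303 and 369 CPM in siControl DXR libraries (log2 fold change -0.45, adjusted p = 0.0173 by edgeR). Both were lower in every siMlx library, but the ADAMTS1 call ended without siControl DXR replicate 3 or siMlx DXR replicate 1 (adjusted p = 0.0909 and 0.0957).

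Some members were called the same way with and without DXR, mostly at shares near or under those of all genes. With siMondoA, DCN, FBN1, LOXL1 and LOXL3 were higher in both conditions, 9.52% of those tested against 7.84% of all genes, and TGFBI, FBN2, LOX and NID1 lower in both, 9.52% against 11.9%. With siMlx, FBN2, LOXL1, COL18A1 and ADAMTS5 were higher in both, 9.52% against 10.98% of all genes, and COL8A1 and ADAMTS1 lower in both, 4.76% against 12.1%. LOXL1 was the only member called in the same direction in all 4 comparisons, 2.38% of those tested, against 2.24% of all genes called higher in all 4. The LOXL1 call with siMondoA under DXR ended without siControl DXR replicate 2 or 3 or siMondoA DXR replicate 1 or 3 (adjusted p between 0.0794 and 0.244 by edgeR). The DCN and FBN1 calls with siMondoA ended without any 1 of several libraries in each condition. The FBN2 call with siMlx under DXR ended without any single library of the groups compared.

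Set directly against each other, siMondoA and siMlx differed in 47.6% of the members untreated and in 35.7% with DXR, against 58.9% and 39.0% of all genes tested. Untreated, 14 members (33.3%) were higher with siMondoA than with siMlx, against 28.5% of all genes, and 6 (14.3%) were lower, against 30.4%. With DXR, 5 (11.9%) were higher, against 18.9% of all genes, and 10 (23.8%) lower, against 20.0%. COL8A1 was higher with siMondoA by 1.00 untreated and 0.39 with DXR (adjusted p = 1.17e-08 and 0.00166 by edgeR). ADAMTS1 had 237, 243 and 328 CPM in siMondoA untreated libraries against 161, 146 and 181 CPM in siMlx untreated libraries, and was higher by 0.73 untreated and 0.59 with DXR (adjusted p = 0.000151 and 0.00186 by edgeR). NID2 had 618, 642 and 588 CPM in siMondoA untreated libraries against 426, 381 and 359 CPM in siMlx untreated libraries (log2 fold change 0.66, adjusted p = 2.09e-07 by edgeR). LOXL3 was higher with DXR by 0.64 (adjusted p = 0.00792 by edgeR).

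ADAMTS5 and COL18A1 were lower with siMondoA than with siMlx in both conditions, and the libraries did not overlap. ADAMTS5 differed by -1.12 untreated and -0.77 with DXR (adjusted p = 4.61e-06 and 0.000143 by edgeR). COL18A1 had 18.5, 23.7 and 27.4 CPM in siMondoA untreated libraries against the siMlx values above, and differed by -0.99 untreated and -0.77 with DXR (adjusted p = 1.29e-05 and 0.000428 by edgeR). FBN2 differed by -0.75 untreated (adjusted p = 1.18e-09 by edgeR) and -0.37 with DXR. COL7A1 had 9.60, 10.0 and 10.9 CPM in siMondoA DXR libraries against 18.03, 12.9 and 15.7 CPM in siMlx DXR libraries (log2 fold change -0.60, adjusted p = 0.0400 by edgeR), and the call ended without siMlx DXR replicate 1 or 3 or any 1 siMondoA DXR library (adjusted p between 0.0585 and 0.146).

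Whether the DXR response itself differed between siRNAs was tested as an interaction, the log2 fold change with DXR in the knockdown minus that in siControl cells. For siMondoA 3 members had a higher response, against 5.84% of all genes tested, and 0 a lower one, against 4.28%. For siMlx 6 had a higher response, against 6.43% of all genes, and 1 a lower one, against 5.81%. At an unadjusted p under 0.05 the siMondoA interaction held 3 members with a higher and 3 with a lower response, and DESeq2 called 0 lower. THBS1 had a larger DXR response with siMondoA by 0.88 (SE 0.22, adjusted p = 0.0154 by edgeR) and with siMlx by 0.77 (adjusted p = 0.0266). Its knockdown and siControl values were further apart untreated than with DXR. Without siControl untreated replicate 1 or 2, siMlx untreated replicate 3 or siControl DXR replicate 2, the siMlx value was not called (adjusted p between 0.0635 and 0.0784 by edgeR).

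COL8A1 had a larger DXR response with siMlx by 0.58 (adjusted p = 0.00492 by edgeR), and so did SPARC by 0.37 (adjusted p = 0.0139). ADAMTS5 had a smaller one, at -0.96 (adjusted p = 0.00565 by edgeR), with siMlx libraries highest both untreated and with DXR. HSPG2, LAMA4 and LAMA5 had larger responses with siMlx by 0.57, 0.51 and 0.48 (adjusted p = 0.0228, 0.0399 and 0.0287 by edgeR), and each of these 3 calls ended without any 1 of 6 or more libraries (adjusted p between 0.0509 and 0.117). With siMondoA, NID1 fell less, at 0.35 (adjusted p = 0.0346 by edgeR), and FBN2 rose more, at 0.27 (adjusted p = 0.0401). The NID1 and FBN2 calls ended under upper-quartile scaling (adjusted p = 0.05004 and 0.0731 by edgeR) and without most single libraries.

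Other genes that make, cut and bind the matrix were counted in lists outside the members, over those tested. Of all genes tested, 26.2%, 30.9% and 28.1% rose with DXR in siMondoA, siMlx and siControl cells and 28.0%, 31.2% and 28.6% fell, the shares beside which all list counts with DXR stand. Of 24 collagen synthesis and processing enzymes, 16, 17 and 16 rose with DXR in siMondoA, siMlx and siControl cells and 1, 4 and 1 fell, with medians of 0.58, 0.59 and 0.54 on the log2 scale. PLOD1, a lysyl hydroxylase, rose by 0.77, 1.07 and 0.96, and P4HA2, a prolyl hydroxylase, by 0.92, 1.20 and 0.97. Of 22 proteases and inhibitors, 15, 14 and 17 rose and 4, 4 and 3 fell. ADAMTS7 rose by 2.03, 2.32 and 1.95, PLAT, tissue plasminogen activator, by 0.84, 1.66 and 1.16, and ADAMTS15 fell by 1.85, 0.92 and 1.19, in the same order of siRNAs (adjusted p at most 1.18e-07 by edgeR).

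Of 25 integrins and other matrix receptors, 15, 16 and 15 rose with DXR in siMondoA, siMlx and siControl cells and 3, 4 and 0 fell. ITGA7, a laminin receptor subunit, rose by 1.17, 1.56 and 1.16, and DDR1, a collagen receptor kinase, by 0.73, 1.22 and 0.95. Of 28 genes of glycosaminoglycan synthesis, 14, 14 and 13 rose and 6, 6 and 4 fell. CHSY1, a chondroitin synthase, fell with siMondoA untreated by 1.76 on the log2 scale (adjusted p = 2.70e-12 by edgeR), and with DXR by 0.66. HAS3, a hyaluronan synthase, rose with siMondoA untreated by 1.54 (adjusted p = 6.78e-07 by edgeR).

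The TGF-beta genes did not move as a block. Of 7 ligands and latency proteins, 3, 4 and 3 rose with DXR in siMondoA, siMlx and siControl cells and 1 fell in each. TGFB2 rose by 0.93, 1.66 and 1.08 (adjusted p = 2.45e-05, 9.78e-09 and 3.36e-06 by edgeR), while TGFB1 fell by 0.44, 0.47 and 0.52 (adjusted p = 0.00762, 0.00351 and 0.00194). Of 9 receptors and SMADs, the kinases and signal carriers of the pathway, 1, 0 and 1 rose and 4, 5 and 7 fell. SMAD2 fell with siMondoA by 1.72 untreated and 1.15 with DXR (adjusted p = 1.87e-13 and 1.80e-10 by edgeR). SMAD2 also fell with siMlx, by 0.42 untreated and 0.21 with DXR.

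Of 9 genes known to be induced by TGF-beta or YAP and outside the members, 8, 9 and 7 rose with DXR in siMondoA, siMlx and siControl cells and none fell. TAGLN, an actin-binding protein, rose by 1.92, 2.62 and 2.16, and CTGF by 1.13, 1.32 and 0.76. Untreated, 2 of the 9 rose and 5 fell with siMondoA, and none rose and 4 fell with siMlx, against 23.3% and 23.3% of all genes with siMondoA and 24.9% and 23.0% with siMlx. CYR61 fell by 0.50 with siMondoA and 0.52 with siMlx (adjusted p = 9.76e-06 and 6.60e-06 by edgeR), and CTGF by 0.51 and 0.44 (adjusted p = 0.000510 and 0.00196). The letters GGAATG, the core that TEAD factors are known to bind, stood on either strand in 6 of the 34 member promoters, 17.6%. The share was 14.0% of all 27305 promoters and 10.9% of the 9830 promoters of tested genes. The 6 were COL12A1, FBN1, LOXL3, SPARC, THBS1 and THBS2. With DXR, FBN1, SPARC and THBS1 rose in each siRNA group, COL12A1 and LOXL3 fell in each, and THBS2 was too low to test. The THBS1 match, at chr15:39581021-39581050 on the plus strand, is shown.
THBS1 TEAD: gaggaatccccaGGAATGcgagcgcccctt
What these letters do in the cells was not tested.

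Markers of other cell types were read in the same libraries. The summed level of 12 fibroblast and mesenchymal markers outside the members was 4275 to 4579, 5015 to 5342 and 3961 to 4182 CPM in the siMondoA, siMlx and siControl DXR groups, against 3906 to 4451, 5196 to 5766 and 3706 to 4296 CPM untreated. Most of it was VIM, vimentin, which averaged 3161, 3648 and 2843 CPM with DXR and 3132, 4428 and 2979 CPM untreated in the same order. The sum overlapped between DXR and untreated libraries in each siRNA group, stood higher with siMlx than with siControl in both conditions without overlap, and PDPN, TCF21 and CDH11 were at or near 0. Of the 9 fibroblast markers tested, 2, 4 and 3 rose with DXR in siMondoA, siMlx and siControl cells and 3, 4 and 5 fell. The 15 retinal pigment epithelium markers summed to 1319 to 1397, 977 to 1057 and 1168 to 1226 CPM with DXR, against 635 to 849, 366 to 459 and 559 to 745 CPM untreated, mostly KRT8 and KRT18. The 12 endothelial and blood markers summed to 110 to 147, 84.1 to 99.9 and 127 to 133 CPM with DXR, against 103 to 126, 68.0 to 86.1 and 108 to 136 CPM untreated, nearly all of it CD68. The retinal pigment epithelium sum was higher with DXR in each siRNA group and lower with siMlx than with siControl in both conditions. By contrast, OTX2 averaged 12.7, 11.5 and 13.8 CPM with DXR and 21.3, 15.5 and 21.3 CPM untreated, in the same order. Of the 8 retinal pigment epithelium markers tested, 5, 5 and 4 rose with DXR and 2, 2 and 1 fell. The part of these marker lists in the members' results was not tested.

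An siRNA can also lower messages other than its target through short matches in their 3′ UTRs, and no siRNA sequence was read from the labels. Among genes outside the set, 7-base words held by at least 100 genes were ranked in untreated siMondoA cells. The score was the mean fold change of genes with the word minus that of genes without it, weighted by gene number. TCCAGTA had the lowest score and was chosen for it, so its shares describe the same genes and comparison that chose it. Of 988 genes whose 3′ UTR holds it, 46.6% fell with siMondoA, against 23.4% of 10391 genes without it. Among the members, DCN, LOXL3 and THBS1 hold it, of which DCN and LOXL3 rose with siMondoA untreated and THBS1 fell. The THBS1 match (chr15:39598848-39598877, plus strand, GRCh38) is shown in capitals because THBS1 had the largest fall.
THBS1 UTR: gtagaaaagccTCCAGTAttaagctcctga
The same choice in siMlx cells gave AATGAGA, with 40.4% of 1808 genes holding it lower, against 21.7% of 9571 without it. It stands in the 3′ UTR of 9 members, of which ADAMTS1, COL16A1, LOX, TGFBI and VCAN fell with siMlx untreated, and COL8A1 and THBS1 do not hold it. The VCAN call ended under upper-quartile scaling (adjusted p = 0.0841 by edgeR), in a fit of the groups compared alone (0.0506) and without siControl untreated replicate 1 or 2 or siMlx untreated replicate 2 or 3 (adjusted p between 0.112 and 0.255). The shares were not corrected for UTR length, and whether such matches lowered these messages was not tested.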

How the data were processed

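Total RNA (RNeasy Plus) of 18 samples of RPE-1 cells was made into libraries with the TruSeq Stranded mRNA kit, per the labels' protocols. The submitters' processing notes name bcl2fastq, TopHat2 2.1.1 and GRCh38; the counting tool, annotation and strand setting were not stated (not given in the sources used here), so reads shared with antisense or overlapping genes are uncertain. The authors deposited read counts and RPKM values for 33121 genes in each library. The deposited counts were whole numbers summing to 15503423 to 29219280 per library, and intervals cover counting error only. The deposited RPKM, which carry no TMM scaling, were used to set levels of different genes side by side. They also gave the counts of members by level and by highest and lowest group.

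Counts were tested with edgeR 4.0.16 in R 4.3.3: TMM scaling, filterByExpr (13676 genes kept), 1 mean per group over all 18 libraries, quasi-likelihood tests of 11 comparisons, and Benjamini-Hochberg adjustment over all genes tested. The fit had 12 residual degrees of freedom and was checked on simulated counts. CPM are TMM-scaled. Ratios at few counts carry 95% counting intervals. The members and the other gene lists were chosen with earlier results of these data known. Members with values in every library are the 3 largest called changes per direction and comparison, averaging 5 CPM or more in the higher group and with libraries that do not overlap, the 3 smallest adjusted p in the interactions, and FN1, THBS1, SPARC, TGFBI, LOX and COL1A1 throughout. From the other lists, up to 3 called genes with the smallest p per comparison could be named, with TGFB1 and TGFB2. Alternatives were RLE and upper-quartile scaling, DESeq2 1.42.0, no filter, a filter of 1 CPM in 3 libraries, a replicate block, fits of the groups compared alone, and each library left out in turn. Promoters came from RefSeq (GRCh38.p14), gene positions and 3′ UTRs from GENCODE v29 (GRCh38), and all motifs were searched on both strands.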

Additional observations from a re-analysis of the deposited data

Results flagged for a closer look

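The DXR response differed between a knockdown and siControl cells, by the edgeR test of the difference itself, for 9 members. The calls made up 7.14% of the members with siMondoA and 16.7% with siMlx, against 10.1% and 12.2% of all genes tested. With siMondoA, THBS1 responded more to DXR by 0.88 on the log2 scale, NID1 fell less by 0.35 and FBN2 rose more by 0.27. With siMlx, THBS1 responded more by 0.77, COL8A1 by 0.58, HSPG2 by 0.57, LAMA4 by 0.51, LAMA5 by 0.48 and SPARC by 0.37, while ADAMTS5 rose less, at -0.96. Leaving out single libraries ended the calls on NID1 and FBN2 with siMondoA (adjusted p between 0.0554 and 0.119 by edgeR) and on THBS1, HSPG2, LAMA4 and LAMA5 with siMlx (adjusted p between 0.0509 and 0.117). Both sets of differences use the same siControl libraries. For THBS1, COL8A1 and SPARC the knockdown stood apart from siControl untreated and within or near its range with DXR, except COL8A1, which stayed lower with siMlx in both conditions.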

How the results depend on the processing

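No result reversed its direction: of 1284 recomputed values of named members, 1213 kept their call, 60 lost it and 11 gained it. Over all tested members, 55 values not called as given passed under some alternative, 45 of them without the low-count filter, 18 with a replicate block and 25 with 1 library left out. The counts of members rising or falling with DXR within each siRNA stayed within 1.5 times of the values given under each alternative. Leaving out 1 library gave 8 to 17 members lower with siMlx untreated (lowest without siMlx untreated replicate 3), 5 to 9 higher with siMondoA untreated (lowest without siControl untreated replicate 3 or siMondoA untreated replicate 2), 2 to 4 higher and 1 to 4 lower with siMlx under DXR, and 1 to 4 higher with siMondoA under DXR. For siMondoA against siMlx under DXR it gave 3 to 5 higher and 6 to 10 lower. In the interactions it gave 2 to 10 higher with siMlx, and 1 to 3 higher and 0 to 1 lower with siMondoA. Without the low-count filter, members lower under DXR numbered 5 with siMlx and 8 with siMondoA, and interactions held 13 higher with siMlx and 3 lower with siMondoA. Upper-quartile scaling left 1 member higher in the siMondoA interaction, and there moved the calls over all genes to 655 higher and 788 lower, against 798 and 586. It also gave 2506 higher and 1953 lower over all genes for siMlx under DXR, against 1908 and 2221, 3813 and 2813 for siMondoA untreated, against 3185 and 3190, and 3909 and 2833 for siMlx untreated, against 3410 and 3143. With a replicate block, 2 members were lower in each interaction, and COL1A1 was called with siMondoA untreated (0.48, adjusted p = 0.00823 by edgeR) and with siMlx under DXR (0.42, adjusted p = 0.0235). The block also called SULF1 higher with siMondoA than with siControl, untreated (1.46, adjusted p = 6.21e-05 by edgeR) and under DXR (0.51, adjusted p = 0.0193). It called SULF1 higher with siMondoA than with siMlx under DXR (0.93, adjusted p = 0.000110 by edgeR). None of these 3 SULF1 values was called as given. Same-numbered libraries shared part of their deviations but not in every pair, so the numbers were not taken as pairs: the deviations of same-numbered libraries correlated with a median of 0.094 over 45 pairs, 22 of them over 0.1, and those of differently numbered ones with a median of -0.068 over 90 pairs, 16 of them over 0.1. Of the 18 libraries, 13 correlated best with their own number. The library names also carry the same number endings in each group, matching the replicate numbers. The labels do not explain these endings, so whether same-numbered libraries were prepared together is not known. The cause of these changes was not tested. Genes under about 1 CPM had the widest errors, and 5 members were too low to test.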
